A study of Mus musculus with 2 samples.

Results

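The semaphorin, plexin and ephrin guidance families were examined in single-cell RNA profiles of the hippocampus of old mice. The members were all gene symbols of the feature list that name a class 3 to 7 semaphorin, a plexin, an Eph receptor or an ephrin, plus neuropilin 2 (Nrp2), and they numbered 52 of 19059 genes measured. They comprised 28 ligands, namely 20 semaphorins and 8 ephrins, and 24 receptors, namely 9 plexins, Nrp2 and 14 Eph receptors. The control library came from C57BL/6 mice on standard chow, and the tomatidine library from C57BL/6 mice whose chow held 0.05% tomatidine, the aglycone of a tomato alkaloid, for 3 months. All mice were 21 months old when the diets began, and each library was made from the pooled, flash-frozen hippocampi of 4 mice. With 1 pooled library per group, the spread between mice could not be measured, so no comparison below carries a test or a p-value.

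Semaphorins and ephrins are surface-bound or secreted cues that turn growing axons, migrating cells and vessel sprouts toward or away from a territory. Plexins are the signalling receptors of semaphorins, and most class 3 semaphorins reach them through a neuropilin co-receptor. Eph receptors are tyrosine kinases that meet membrane-tethered ephrins at cell contacts, where signals can pass into both cells, and in the adult hippocampus both systems are known for shaping dendritic spines, mossy fibre synapses and glial contacts.

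The deposited tables held 15912 control cells with 279525565 unique molecular identifiers (UMIs, counted RNA molecules) and 15185 tomatidine cells with 259059908. After quality filters and doublet removal 15115 and 14503 cells were kept. Clustering gave 37 clusters, of which 12 stayed unnamed, and 13 marker-named classes held at least 50 cells in each library. The libraries differed in make-up: choroid plexus epithelium gave 346 control and 32 tomatidine cells, fibroblasts 285 and 527, and an unnamed neuronal cluster led by Pou4f2 180 and 685. RNA of choroid plexus genes was also spread more widely in the control library, for example at a summed 644.7 CPM (counts scaled to an equal UMI total for each class and library) against 85.3 in oligodendrocytes. The libraries shared 292 cell barcodes. Classes carried markers of thalamus, habenula and meninges as well as hippocampus proper. Border macrophages also showed all 12 microglial markers raised, and endothelial cells all 11 mural markers. The border macrophage class further held T cell markers, at a summed 772.8 CPM in the control and 738.3 in the tomatidine library.

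Most of these genes had the same highest class in both libraries, but only 5 stood at least 3-fold above the next class in both. Some led by little, such as Nrp2 at 1.06 and 1.07 times the next class. Levels were compared for each gene between classes and not between genes, because the assay counts probe pairs whose number per gene was not known here. Where genes are ordered by their share of counts further below, the order is one of counted molecules only. Of the 52 members, 51 reached 100 UMIs over both libraries in at least 1 class. The exception was Efna4, an A-type ephrin, with 223 UMIs in the control and 170 in the tomatidine library over all kept cells. For 44 of the 51 the class with the highest CPM was the same in both libraries, and for 36 of these the 95% counting interval also lay above that of the next class in both. These maxima are among the 13 compared classes. A smaller named class read higher in both libraries for 7 genes: choroid plexus epithelium for Sema3b and Sema3f, habenular neurons for Epha8, Nrp2 and Plxnc1, ependymal cells for Plxnb2 and mural cells for Epha2. The 12 unnamed clusters, with 2675 control and 3525 tomatidine cells, were left out of this list. Among them the cluster led by Pou4f2, described below, also read Sema3f above all compared classes. Counting intervals cover the sampling of molecules only, not differences between mice. By family, 19 of 20 semaphorins, 6 of 7 ephrins, 6 of 9 plexins, Nrp2 and 12 of 14 Eph receptors kept their highest class.

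**Figure D1:**
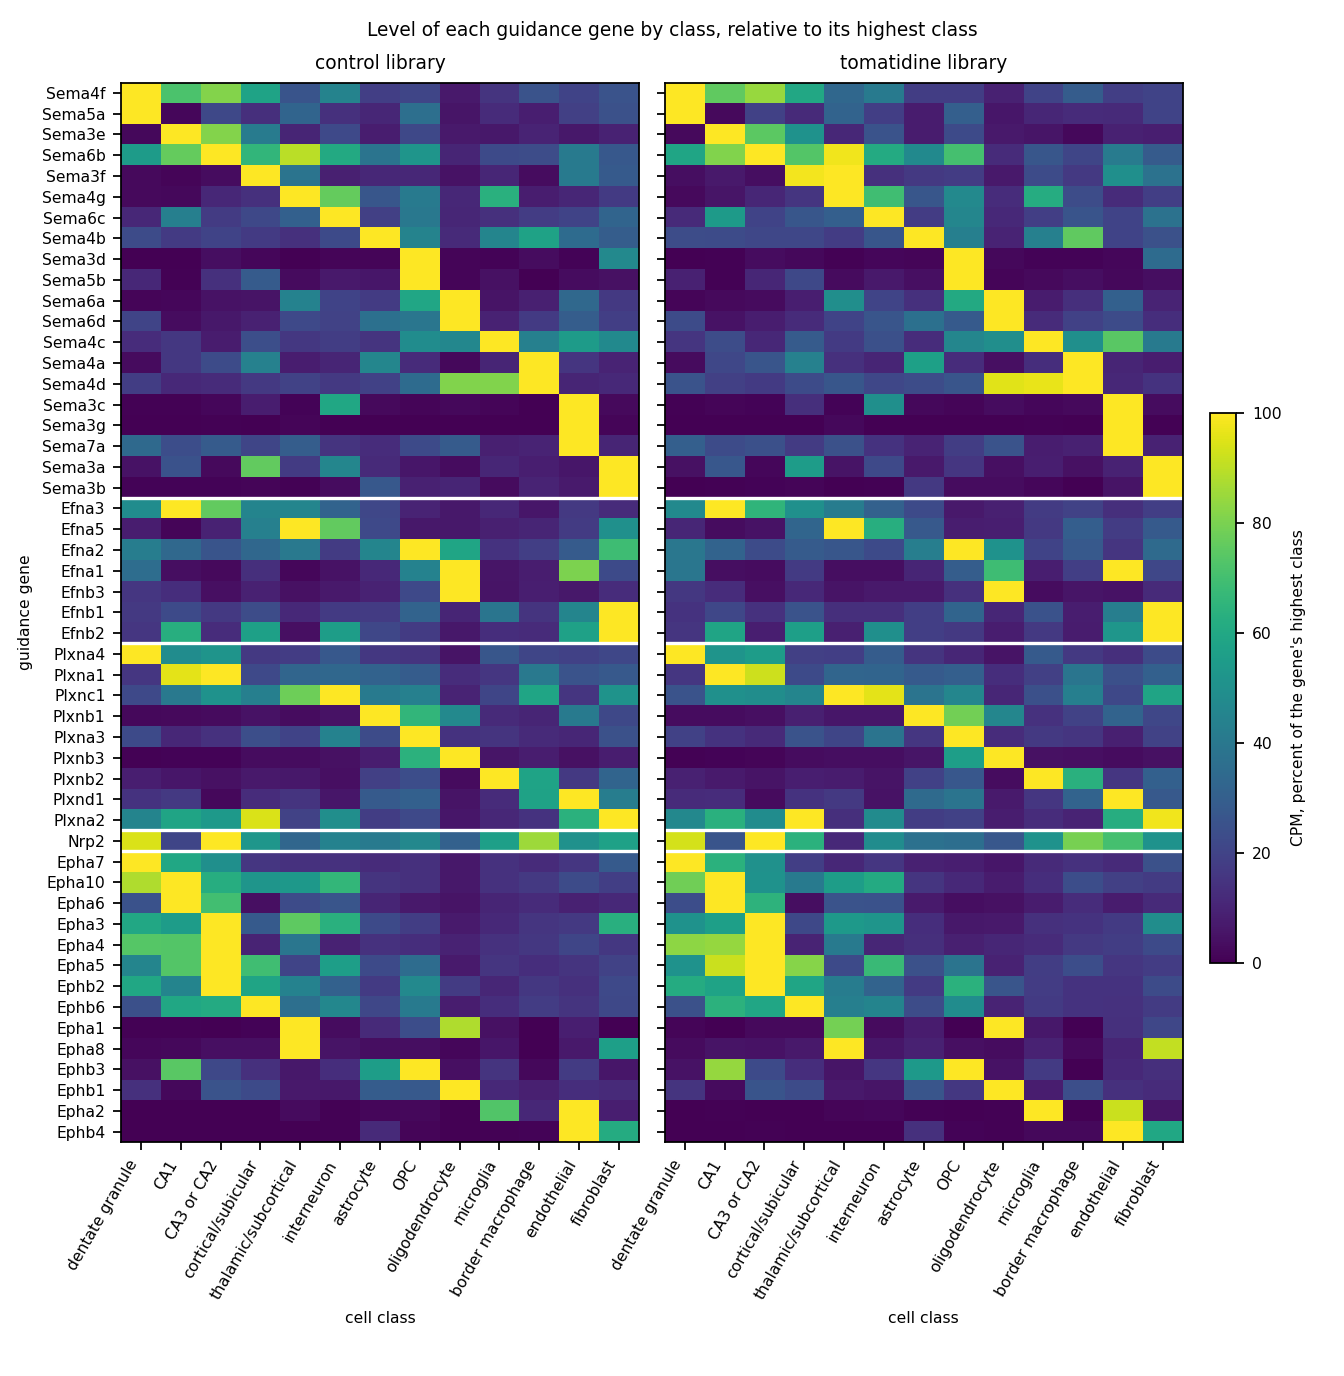
Level of 51 guidance genes (rows, grouped by family) in 13 cell classes (columns) of the control library (left) and the tomatidine library (right); the colour gives CPM as a percent of the gene's highest class in that library. The diagonal bands repeat between the libraries, with 44 of 51 genes highest in the same class.

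Epha3, Epha4, Epha5, Epha6, Epha7 and Epha10 were highest in hippocampal principal neurons in both libraries. Of the other A-type receptors, Epha8 was highest in thalamic or other subcortical neurons (89.8 and 74.6 CPM), and Epha1 and Epha2 had no common highest class. Epha4, a receptor that binds both ephrin types, was highest in CA3 or CA2 pyramidal neurons, at 764 CPM in the control and 710.5 in the tomatidine library, and stood at 562.5 and 590.8 in dentate granule neurons. Epha6 was highest in CA1 pyramidal neurons (617.1 and 724.5 CPM) and Epha7 in granule neurons (567.5 and 496.4 CPM). Epha3, Epha5, Ephb2 and Nrp2 shared the CA3 or CA2 maximum with Epha4, whereas Epha10 was highest in CA1 with Epha6. Ephb6, a kinase-dead member, was highest in cortical or subicular neurons, at 258.3 and 259.7 CPM.

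Among neuronal ligands, Sema5a marked granule neurons at 501.1 and 496.6 CPM and was low in CA1 at 8.92 and 13 CPM. Sema3e showed the opposite layout, with 190.1 and 191.8 CPM in CA1, 155 and 143.3 in CA3 or CA2, and 4.30 and 5.09 in granule neurons. The granule and pyramidal layers were thus separated by these ligands in both libraries. Sema4f and the receptor Plxna4 were also highest in granule neurons, Efna3 in CA1, Sema6b in CA3 or CA2, Sema6c in interneurons, and Efna5, Sema4g and Epha8 in thalamic or other subcortical neurons.

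In the oligodendrocyte lineage, Efnb3, a B-type ephrin known as a midline cue and an inhibitor of axon growth in myelin, reached 1413 CPM in control and 1461 CPM in tomatidine oligodendrocytes. This was 4.56 times the next class, the precursors, in the control and 6.20 times the next class, granule neurons, in the tomatidine library. Its receptor family was present in the same cells: Ephb1 stood at 194.8 and 200.7 CPM in oligodendrocytes, 3.45 and 3.77 times its level in astrocytes, the next class. Plxnb3, Sema6a and Sema6d completed the oligodendrocyte set, at 486 and 463.3, 248.2 and 255.6, and 455.8 and 411.5 CPM. Oligodendrocyte precursors had their own set, made of Sema3d, Sema5b, Efna2, Ephb3 and Plxna3. Sema5b, a transmembrane semaphorin that repels axons, stood at 124.4 and 156.4 CPM in precursors against 35.6 and 33.6 in cortical or subicular neurons, its next class, and 1.60 and 2.27 in oligodendrocytes.

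Vascular, meningeal and immune cells held the remaining maxima. Sema3g, a secreted semaphorin of arterial endothelium, was read at 111.8 and 150.3 CPM in endothelial cells. In any other of the 13 compared classes it read no more than 1.64 CPM in the control and 3.08 CPM in the tomatidine library. Endothelium thus stood at 68.1 and 48.8 times the next compared class. Sema7a, a membrane-anchored semaphorin, Sema3c, Ephb4 and Plxnd1 were also highest in endothelium among the 13 classes, with Sema7a at 788.1 and 802.1 CPM. Sema3c stood at 363.7 and 382.4 CPM there and at 216.5 and 190.4 in interneurons as a class. The interneuron cluster led by Vip, given below, read it higher than endothelium in both libraries. Sema3b was highest in fibroblasts at 32.2 and 69.0 CPM, 3.63 and 6.00 times its level in astrocytes. It was higher still in choroid plexus epithelium, at 252.6 CPM from 687 UMIs in the control and 186.5 CPM from 79 UMIs in the tomatidine library, a class too small in the tomatidine library to enter the comparison. Efnb1, Efnb2 and Sema3a were also highest in fibroblasts. Among the 13 classes, microglia held the maxima of Plxnb2 (686.3 and 669.7 CPM, below the 731.8 and 852.3 CPM of the few ependymal cells) and Sema4c, border macrophages those of Sema4a and Sema4d, and astrocytes those of Plxnb1 (388 and 358.8 CPM) and Sema4b.

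For 7 genes the highest class differed between the libraries. Efna1 was highest in oligodendrocytes in the control (39.7 CPM, against 31.8 in endothelium) and in endothelium in the tomatidine library (43.5 CPM, against 30.1 in oligodendrocytes). Epha2 was highest in control endothelium (57.9 CPM) and in tomatidine microglia (65.0 CPM). Plxna1 was highest in CA3 or CA2 neurons in the control (337.6 CPM) and in CA1 in the tomatidine library (364.1 CPM). In the same order, Plxna2 was highest in fibroblasts and cortical or subicular neurons, Plxnc1 in interneurons and thalamic or other subcortical neurons, Sema3f in cortical or subicular and thalamic or other subcortical neurons, and Epha1 in thalamic or other subcortical neurons and oligodendrocytes.

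For 5 members the highest class exceeded the next at least 3-fold in both libraries. On GRCm38 these were Efnb3 on the minus strand at chr11:69554092-69560205, Ephb1 on the minus strand at chr9:101922128-102354693, Sema3b on the minus strand at chr9:107597674-107609229, Sema3g on the plus strand at chr14:31217860-31230352 and Sema5b on the plus strand at chr16:35541145-35664732. RefSeq promoter windows (GRCm38.p6) matched Ephb1, Sema3g and Sema5b, and the 250 bases upstream of each start are shown because these 3 genes mark oligodendrocytes, endothelium and precursors respectively. They cover chr9:102354694-102354943 (minus), chr14:31217623-31217872 (plus) and chr16:35541112-35541361 (plus) and are written 5′ to 3′ along the gene.
Ephb1: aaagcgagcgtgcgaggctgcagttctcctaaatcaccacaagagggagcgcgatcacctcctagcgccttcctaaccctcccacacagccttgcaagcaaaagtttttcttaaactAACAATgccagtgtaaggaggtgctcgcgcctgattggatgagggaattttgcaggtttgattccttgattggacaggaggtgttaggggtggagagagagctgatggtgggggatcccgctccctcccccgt
Sema3g: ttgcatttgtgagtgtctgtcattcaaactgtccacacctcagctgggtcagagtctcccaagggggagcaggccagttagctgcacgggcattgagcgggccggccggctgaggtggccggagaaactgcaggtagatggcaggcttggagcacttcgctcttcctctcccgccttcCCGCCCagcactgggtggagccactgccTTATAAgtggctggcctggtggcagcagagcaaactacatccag
Sema5b: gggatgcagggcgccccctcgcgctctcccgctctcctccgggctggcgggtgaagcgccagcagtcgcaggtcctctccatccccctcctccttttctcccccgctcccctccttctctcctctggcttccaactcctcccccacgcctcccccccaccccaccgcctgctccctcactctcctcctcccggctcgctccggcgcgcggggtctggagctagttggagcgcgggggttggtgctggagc
Capitals mark matches to 5 motifs searched on both strands. These were the SOX-type words ACAAAG and AACAAT, present in 16.5% and 9.42% of all 32851 windows of this length, the ETS-type word CAGGAAG (10.8%), the GC box GGGCGG (32.7%) and the TATA word TATAA (22.8%). The Ephb1 window held AACAAT 133 bases before the start. The Sema3g window held a GC box on the opposite strand 72 bases before the start and overlapping TATA words on both strands 43 and 44 bases before it, which are printed as TTATAA. The Sema5b window held no match and was the richest in G and C, at 72% with 19 CG pairs, against 54% with 10 for Ephb1, 60.4% with 8 for Sema3g and a median of 52.4% G and C over all windows. These letters are a description of the windows and not of bound factors.

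Which ligands and receptors gave most of the counts differed between classes. These shares depend on how many probes each gene has, so they do not rank the genes of a class by expression. The 5 members with most UMIs supplied 69.7% of all guidance UMIs in oligodendrocytes, where Efnb3 alone gave 33.4%, followed by Plxnb3, Sema6d, Sema4d and Sema6a. In granule neurons Epha4, Epha7, Sema5a, Plxna4 and Sema7a gave 54.2%. In microglia Plxnb2, Sema4d, Plxna4, Sema4c and Epha4 gave 51.5%, in CA1 Epha6, Epha4, Plxna1, Epha7 and Epha5 gave 48.2%, in CA3 or CA2 Epha4, Epha6, Epha5, Plxna1 and Sema6b gave 48.1%, and in border macrophages Sema4d, Plxnb2, Sema4a, Plxna1 and Epha4 gave 48.0%. Endothelial counts were led by Sema7a, Sema3c, Ephb4, Plxna2 and Plxnd1 with 43.3%. The most even mixtures were those of interneurons, fibroblasts and precursors, whose leading 5 gave 30.8%, 29.9% and 31.8%. Precursor counts were led by Plxnb3, Plxnb1, Efnb3, Sema3d and Sema6b, astrocyte counts by Plxnb1, Sema6d, Sema4b, Sema4a and Plxnb2, cortical or subicular counts by Epha5, Ephb6, Plxna2, Sema6b and Sema7a, and thalamic or other subcortical counts by Epha4, Sema6b, Sema7a, Sema5a and Epha6. Epha4 was among the leading 5 in 7 of the 13 classes.

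In UMIs summed over the families, ligands outnumbered receptors most in oligodendrocytes and receptors outnumbered ligands most in pyramidal neurons. Oligodendrocytes held 3032 ligand and 1264 receptor CPM in the control and 3023 and 1261 in the tomatidine library, or 2.40 ligand UMIs per receptor UMI in both. Endothelial cells followed at 1.46 and 1.52 and precursors at 1.15 and 1.09. CA3 or CA2 neurons stood at the other end with 0.436 and 0.425, next to CA1 with 0.469 and 0.454 and granule neurons with 0.662 and 0.667. The remaining 7 classes lay between 0.746 (microglia, control) and 1.11 (thalamic or other subcortical, tomatidine). These sums lean on the genes with the most counts, and those genes differ between classes. The ratio and its order across classes therefore depend on how many probes each gene has, and they describe counted molecules only.

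**Figure D2:**
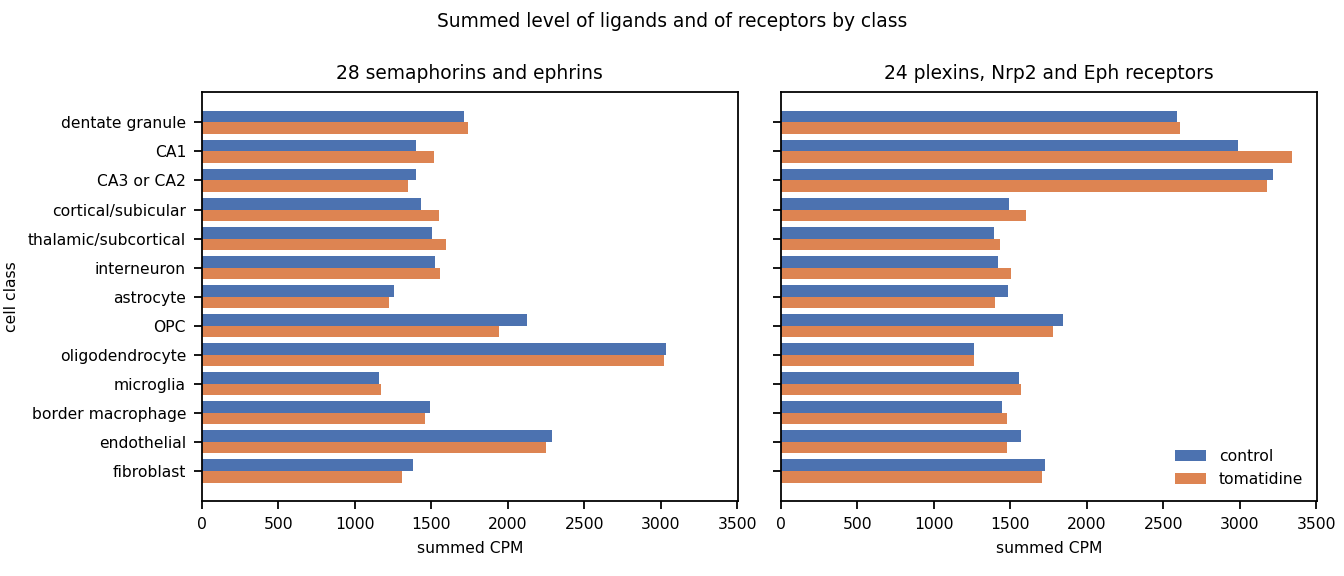
Summed CPM (horizontal axis) of 28 ligands (left) and 24 receptors (right) in each of 13 cell classes, with 1 bar per library. Ligand sums peak in oligodendrocytes at 3032 and 3023 CPM, receptor sums in CA3 or CA2 neurons at 3214 and 3176 CPM and in CA1 neurons at 2988 and 3338 CPM.

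Between the libraries these sums moved little. On the log2 scale of tomatidine over control, the ligand sum ranged from -0.13 (95% counting interval -0.19 to -0.08) in precursors to 0.12 (0.09 to 0.14) in CA1, and the receptor sum from -0.09 (-0.14 to -0.03) in endothelium to 0.16 (0.14 to 0.18) in CA1, where coarser clustering (resolution 0.3) gave -0.0020. In oligodendrocytes both intervals included 0, at -0.0046 (-0.023 to 0.014) for ligands and -0.0027 (-0.031 to 0.025) for receptors.

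Known ligand and receptor partners were placed as follows, with no count made over pairs. Efnb3 and its receptor Ephb1 were both highest in oligodendrocytes. Sema3e signals through Plxnd1 without needing a neuropilin: the ligand was highest in CA1 and the receptor in endothelium, at 148.7 and 158.1 CPM. Sema4d, a ligand of B-type plexins, was high in border macrophages (497.7 and 396.5 CPM), oligodendrocytes (403 and 378.8 CPM) and microglia (402.5 and 382.7 CPM). Its receptor Plxnb1 peaked in astrocytes, with precursors next at 255.4 and 282.1 CPM, whereas Plxnb2 peaked in microglia and Plxnb3 in oligodendrocytes. Sema7a peaked in endothelium, and its plexin, Plxnc1, in interneurons (99.9 and 94.6 CPM) or thalamic or other subcortical neurons (77.9 and 98.5 CPM), while the small habenular class read 307.7 and 201.7 CPM. Ephrin B2 (Efnb2) peaked in fibroblasts at 127.5 and 134.1 CPM and its receptor Ephb4, the pair known from artery and vein identity, in endothelium at 155.9 and 173.3 CPM, with fibroblasts next at 95.97 and 103.3 CPM. Nrp2, the co-receptor of Sema3f and other class 3 semaphorins, read 143.6 and 137.3 CPM in CA3 or CA2 and 135.7 and 128.7 in granule neurons. It was 530.5 and 426.1 CPM in habenular neurons, a class of 123 control and 35 tomatidine cells. Sema6a and Sema6d were highest in oligodendrocytes, while the plexin A receptors of class 6 semaphorins peaked in principal neurons (Plxna1, Plxna4), cortical neurons or fibroblasts (Plxna2) and precursors (Plxna3).

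The libraries were then compared gene by gene within each class, to ask how guidance transcripts differ with the tomatidine diet. A gene was compared where it had at least 100 UMIs over both libraries in a class, and a difference of at least 1.5-fold in CPM was counted. Of 493 gene and class pairs, 24 were past 1.5-fold higher in the tomatidine library and 20 past it lower, and they involved 29 of the 52 genes. Over all genes measured, the same rule put 3873 gene and class pairs past 1.5-fold, or 3% of those compared. The counting interval of all 44 guidance pairs left out 0, which selection by size partly ensures. Under a stricter cell filter, which follows a second set of limits in the study's methods (at most 6000 genes and under 10% mitochondrial UMIs, with clusters remade), 9 of the 44 were again past 1.5-fold, 16 had the same sign at a smaller size, and 19 fell under 100 UMIs, of which 4 changed sign. Those 4 were Ephb1 and Sema3c in CA1, Nrp2 in thalamic or other subcortical neurons and Sema3f in interneurons.

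**Figure D3:**
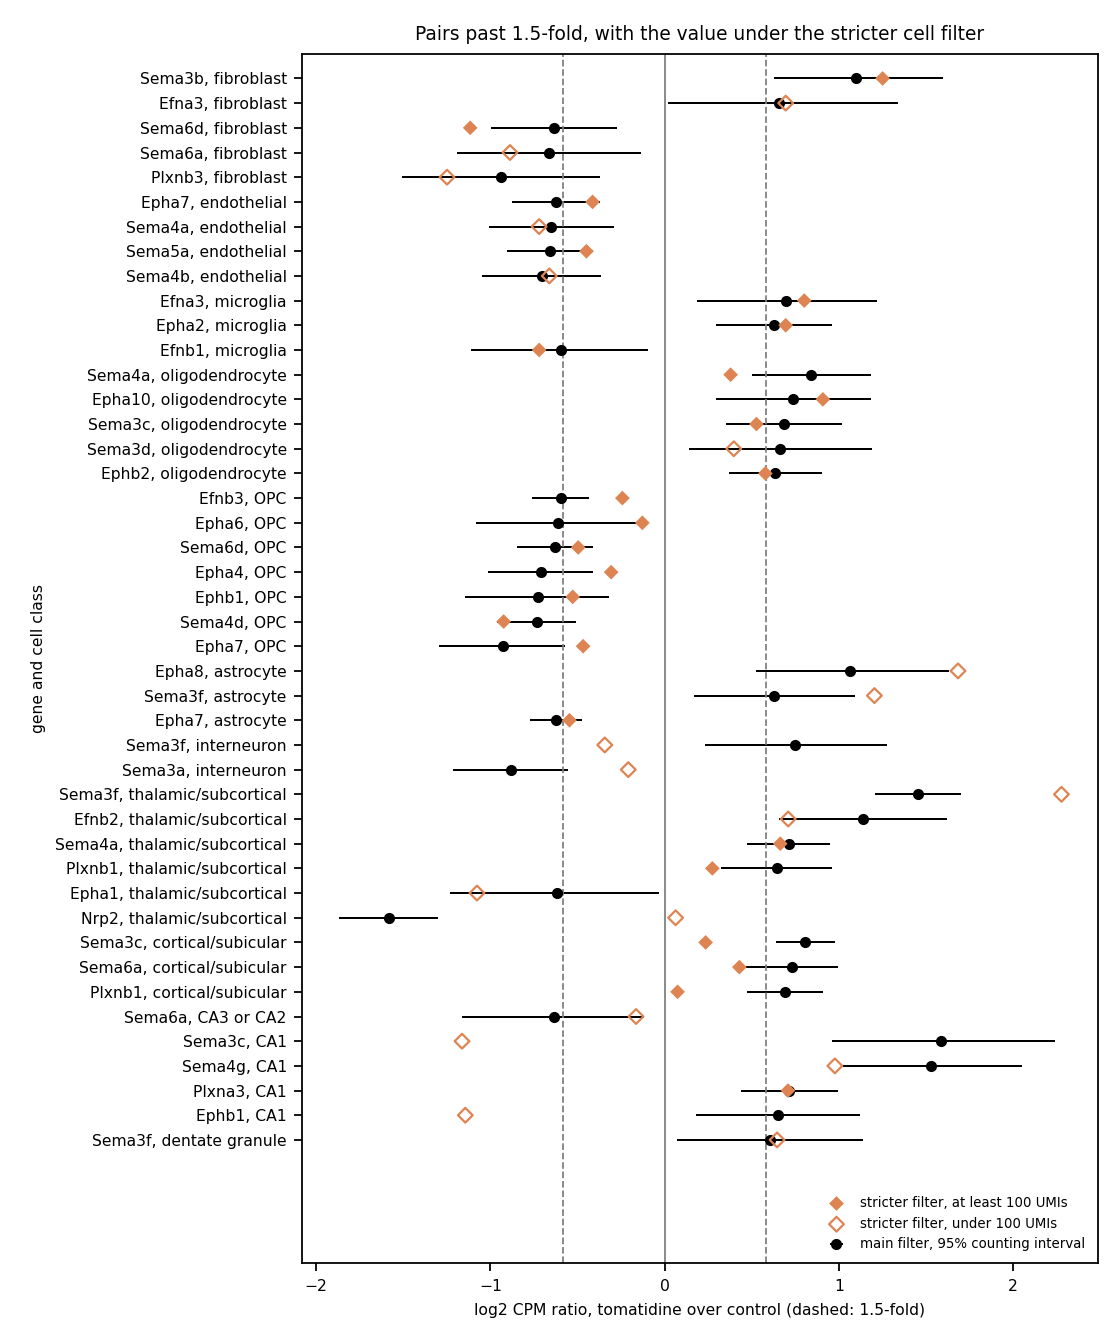
The 44 gene and class pairs past 1.5-fold, as log2 CPM ratio of tomatidine over control (horizontal axis); black points and bars give the value and its 95% counting interval, diamonds the value under the stricter cell filter (open where fewer than 100 UMIs remained), and dashed lines mark 1.5-fold. Most diamonds lie nearer to 0 than the black points, and 4 open diamonds lie on the other side of 0.

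Of the 13 classes, oligodendrocyte precursors had the largest share of members past 1.5-fold, all of them lower in the tomatidine library. There, 7 of 37 members compared were past 1.5-fold (18.9%), against 3.61% of all genes compared in the class, while the median over the 37 members (0.03) was that of all genes (0.03). Sema4d stood at 174.1 CPM (533 UMIs) in the control and 104.7 CPM (229 UMIs) in the tomatidine library, a log2 ratio of -0.73 (-0.96 to -0.51), and it was the only one of the 7 past 1.5-fold under the stricter filter (-0.92). Efnb3 stood at 310 and 205.3 CPM (-0.59, -0.76 to -0.43), Sema6d at 179.3 and 116.1 CPM (-0.63, -0.85 to -0.41) and Ephb1 at 54.5 and 32.9 CPM (-0.73, -1.15 to -0.32). These 4 are ligands and a receptor that oligodendrocytes hold at higher levels than precursors. The others were the neuronal A-type receptors Epha7 (78.4 and 41.2 CPM, -0.93, -1.30 to -0.57), Epha4 (100.3 and 61.3 CPM, -0.71, -1.01 to -0.41) and Epha6 (41.2 and 26.97 CPM, -0.61, -1.08 to -0.15).

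The members divided by their control levels in the 2 lineage stages. Of 7 members compared that were higher in oligodendrocytes than in precursors in the control library, 6 had a ratio under 0, 4 were past 1.5-fold lower, and the median was -0.59. The 30 members higher in precursors had a median of 0.06, with 11 under 0 and 3 past 1.5-fold lower. The same split was not made over all genes, so it cannot be read as particular to these families. The precursor set lay apart from this: Sema3d stood at 226.3 and 224.9 CPM, Sema5b at 124.4 and 156.4 and Plxna3 at 93.4 and 116.6. Sema6a went against the split, at 147.3 and 155.4 CPM. Beside this, all 11 oligodendrocyte markers were lower in the precursor class of the tomatidine library, with a summed level of 14392 CPM in the control and 8085 in the tomatidine library. All 8 precursor markers were higher (9615 and 10704 CPM), and all 7 granule neuron markers were lower (590.8 and 460.8 CPM). The part of oligodendrocyte or neuronal RNA in the precursor differences was not tested.

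**Figure D4:**
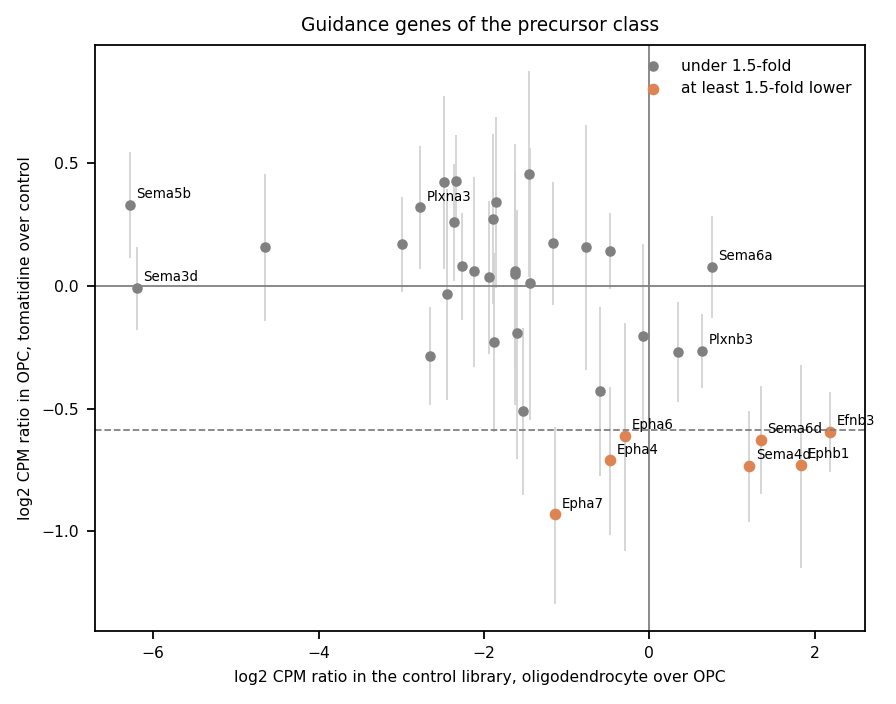
Guidance genes compared in the precursor class, with the log2 CPM ratio of oligodendrocytes over precursors in the control library on the horizontal axis and the log2 CPM ratio of tomatidine over control in precursors on the vertical axis; grey bars are 95% counting intervals and orange points are at least 1.5-fold lower (dashed line). Of the 7 genes to the right of 0, 4 are orange and Sema6a alone lies above 0.

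CA1 pyramidal neurons differed in the other direction. Of 40 members compared, 34 had a ratio above 0, with a median of 0.27 beside 0.06 over all genes, and 4 (10%) were past 1.5-fold, all higher, against 4.47% of all genes compared, of which 469 were higher and 16 lower. Plxna3, a plexin that carries signals of class 3 semaphorins, stood at 10.4 CPM (199 UMIs) and 17.2 CPM (231 UMIs), a log2 ratio of 0.72 (0.44 to 0.998) and 0.71 under the stricter filter. Sema4g stood at 2.57 and 7.43 CPM (1.53, 1.02 to 2.05), Sema3c at 1.68 and 5.05 CPM (1.59, 0.96 to 2.24) and Ephb1 at 3.88 and 6.09 CPM (0.65, 0.18 to 1.12). The last 3 rest on 100 to 156 UMIs, and for Sema3c and Ephb1 the sign turned under the stricter filter, at -1.16 and -1.14. All 8 thalamic markers were higher in tomatidine CA1 neurons, at a summed 31.9 CPM in the control and 73.2 in the tomatidine library. Sema4g is highest in thalamic or other subcortical neurons. The median CA1 cell had 25596 UMIs in the control and 17922 in the tomatidine library. The part of these shifts was not tested.

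In thalamic or other subcortical neurons 6 of 41 members compared (14.6%) were past 1.5-fold, against 4.2% of all genes compared. Sema3f, the class 3 ligand that signals through Nrp2, stood at 17.8 CPM (217 UMIs) in the control and 48.8 CPM (380 UMIs) in the tomatidine library, a log2 ratio of 1.45 (1.21 to 1.70). Nrp2 itself went the other way, at 47.6 CPM (580 UMIs) and 15.9 CPM (124 UMIs), a ratio of -1.58 (-1.87 to -1.30). Under the stricter filter, with clusters remade, the class held 369 control and 226 tomatidine cells, against 296 and 236. It was thus made in part of other cells. There Sema3f read 2.28 on 17 and 58 UMIs, and Nrp2 read 0.06 on 49 and 36 UMIs. These values cannot show whether either difference holds in the cells first compared. Sema4a was higher at 23.6 and 38.8 CPM (0.71, 0.48 to 0.95) and again past 1.5-fold under the stricter filter (0.66). Efnb2 read 5.25 and 11.6 CPM (1.14, 0.66 to 1.62), Plxnb1 13.6 and 21.3 CPM (0.65, 0.33 to 0.96) and Epha1 6.90 and 4.49 CPM (-0.62, -1.23 to -0.03). Of the 12 microglial markers compared, 11 were higher in this class in the tomatidine library (206.5 and 318.9 CPM summed), and the median cell had 40674 UMIs in the control and 28498 in the tomatidine library. Their part was not tested.

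Sema3f was also past 1.5-fold higher in granule neurons, interneurons and astrocytes, each time at a low level. In granule neurons it was the only member of 45 past 1.5-fold (2.22%, against 1.09% of all genes compared), at 1.23 and 1.87 CPM (0.60, 0.07 to 1.14). Interneurons read 3.98 and 6.70 CPM (0.75, 0.23 to 1.28), with the sign turned under the stricter filter (-0.34), and astrocytes 5.23 and 8.07 CPM (0.63, 0.17 to 1.09). The clusters richest in Sema3f were unevenly shared between the libraries, and in opposite ways. Choroid plexus epithelium, at 118.4 and 125.1 CPM of Sema3f, had 346 control and 32 tomatidine cells. The cluster led by Pou4f2, at 96.03 and 105 CPM, had 180 and 685 cells and 547 and 2192 UMIs of the gene. An unnamed cluster led by Tnnt1 showed a like difference to the thalamic class, at 4.70 CPM (11 UMIs) and 25.6 CPM (26 UMIs) of Sema3f (2.45, 1.38 to 3.61). In cortical or subicular neurons, where the gene is high, it stood at 46.2 and 48.0 CPM. Whether RNA of the unequal clusters entered the other classes was not tested.

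**Figure D5:**
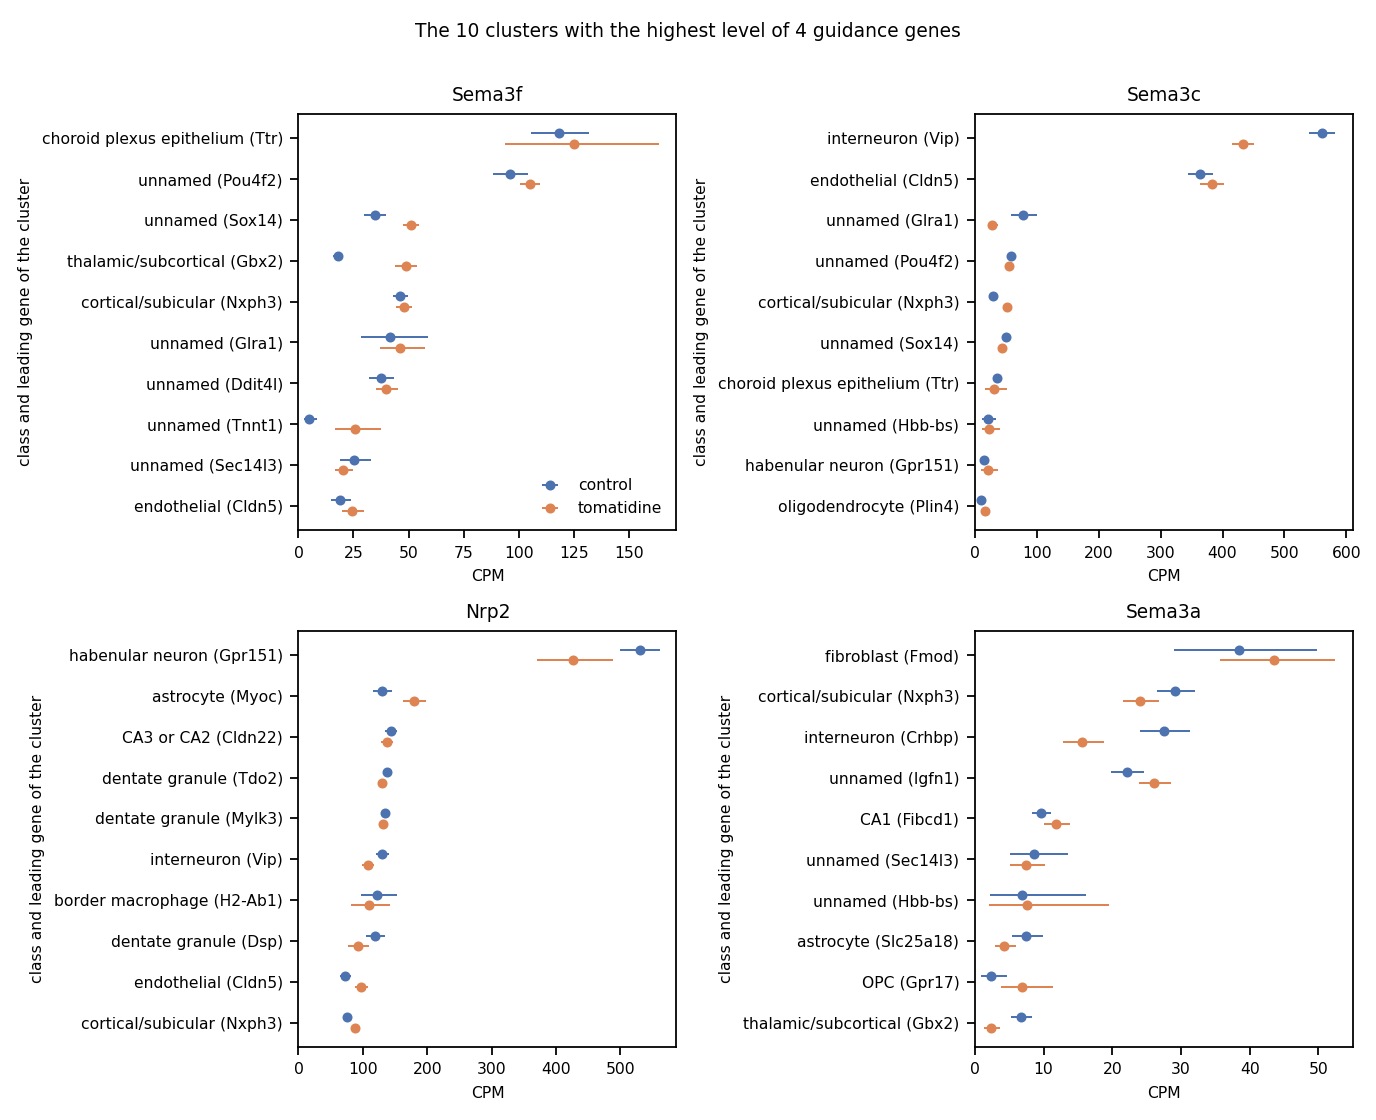
CPM (horizontal axis) of Sema3f, Sema3c, Nrp2 and Sema3a in the 10 clusters where each is highest, labelled by class and leading gene; points are the control and tomatidine libraries and bars 95% counting intervals. Sema3f differs in the thalamic cluster (17.8 against 48.8 CPM) and hardly in the cortical or subicular cluster, Sema3c is concentrated in 1 interneuron cluster and endothelium, and Sema3a differs in 1 interneuron cluster.

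In interneurons 2 of 44 members compared were past 1.5-fold (4.55%, against 1.84% of all genes). Beside Sema3f this was Sema3a, a repellent of axons that is also held in perineuronal nets, at 17.7 CPM (235 UMIs) and 9.60 CPM (116 UMIs), a log2 ratio of -0.88 (-1.21 to -0.55). The counts came from the interneuron cluster led by Crhbp, at 27.5 and 15.6 CPM of Sema3a (-0.82, -1.16 to -0.48), and not from that led by Vip, which held 5 and 9 UMIs. Under the stricter filter the ratio was -0.21 on 34 and 32 UMIs. Sema3c was laid out the other way, at 560.7 and 433 CPM in the Vip cluster (-0.37, -0.45 to -0.29), under 1.5-fold.

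In cortical or subicular neurons 3 of 46 members compared were past 1.5-fold (6.52%, against 2.34% of all genes), all higher. Sema3c stood at 29.8 and 52.1 CPM (461 and 716 UMIs, 0.81, 0.64 to 0.98), Sema6a at 13.04 and 21.6 CPM (0.73, 0.47 to 0.99) and Plxnb1 at 19.1 and 30.9 CPM (0.69, 0.47 to 0.91). All 3 kept their sign but came under 1.5-fold with the stricter filter, at 0.24, 0.43 and 0.07. The class remade under that filter held 405 control and 618 tomatidine cells, against 493 and 479, and so in part other cells. Sema6a and Plxnb1 are mainly glial genes here, and all 11 oligodendrocyte markers and 10 of 11 astrocyte markers were higher in this class in the tomatidine library (2123 and 2757 CPM, and 358.1 and 518.4 CPM summed), whose part was not tested. In CA3 or CA2 neurons 1 of 37 members (2.7%, against 2.44% of all genes) was past 1.5-fold, Sema6a at 11.8 and 7.63 CPM (-0.63, -1.16 to -0.12).

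In oligodendrocytes the differences lay in genes that these cells hold at low levels. The 5 genes highest there all stayed under 1.5-fold, from -0.15 (-0.20 to -0.10) for Sema6d to 0.05 (0.02 to 0.08) for Efnb3. Of 43 members compared 5 were past it (11.6%, against 2.1% of all genes), all higher. Epha10, a kinase-dead receptor, stood at 4.20 and 7.02 CPM (0.74, 0.30 to 1.18) and was the only one again past 1.5-fold under the stricter filter (0.91). Sema4a stood at 6.76 and 12.1 CPM (0.84, 0.50 to 1.19), Sema3c at 7.45 and 11.98 CPM (0.69, 0.35 to 1.02), Sema3d at 3.09 and 4.89 CPM (0.66, 0.14 to 1.19) and Ephb2 at 11.8 and 18.4 CPM (0.64, 0.37 to 0.90). These are genes whose highest class lies elsewhere, in CA1 (Epha10), CA3 or CA2 (Ephb2), border macrophages (Sema4a), endothelium (Sema3c) and precursors (Sema3d). All 8 precursor markers were higher in tomatidine oligodendrocytes (62.1 and 86.5 CPM summed). The summed CA1 markers stood at 145.5 and 167 CPM there, and the CA3 or CA2 markers at 199.4 and 206.3. The border macrophage markers summed to 3.88 and 3.05 CPM and the endothelial markers to 274.5 and 246.7. The part of RNA from these classes was not tested.

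In astrocytes 3 of 46 members compared were past 1.5-fold (6.52%, against 1.99% of all genes). Epha7, here far below its level in granule neurons, stood at 70.5 CPM (850 UMIs) in the control and 45.8 CPM (652 UMIs) in the tomatidine library, a log2 ratio of -0.62 (-0.77 to -0.47). It was lower in each of the 4 astrocyte clusters, with Epha7 at 80.0 and 53.7, 81.9 and 43.2, 42.03 and 35.6, and 36.7 and 24.9 CPM. In the cluster led by Agt, with 23 and 37 UMIs, the interval included 0 (-0.24, -1.03 to 0.58). The clusters are parts of the same 2 libraries and not replicates. Epha8 stood at 3.32 and 6.95 CPM (1.07, 0.52 to 1.63), and Sema3f has been given above. Plxnb1 and Sema4b, the genes highest in astrocytes, stayed under 1.5-fold. The granule neuron markers summed to 351 CPM in control and 300.7 CPM in tomatidine astrocytes.

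Efnb3 was lower in the tomatidine library in several non-neuronal classes that hold little of it, at 137.8 and 97.2 CPM in astrocytes, 73.6 and 51.3 in microglia, 120.9 and 82.9 in border macrophages and 90.3 and 72.7 in endothelium, none past 1.5-fold. Oligodendrocytes, its main source, showed 1413 and 1461 CPM. The summed oligodendrocyte markers were lower in the same 4 classes, at 7597 and 5873 CPM in astrocytes, 4057 and 3628 in microglia, 4923 and 3311 in border macrophages and 4083 and 3416 in endothelium. Their part in these values was not tested.

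Microglia gave 3 of 31 members past 1.5-fold (9.68%, against 2.61% of all genes), and each was past it again under the stricter filter. Epha2, an A-type receptor also read in endothelium (57.9 and 59.8 CPM) and in the small mural class (157.6 and 126.4 CPM), stood at 42.2 CPM (134 UMIs) and 65.0 CPM (180 UMIs), a log2 ratio of 0.63 (0.29 to 0.96). Efna3, an A-type ephrin, stood at 17.6 and 28.6 CPM (0.70, 0.18 to 1.22). Efnb1, a B-type ephrin, was lower at 29.0 and 19.2 CPM (-0.60, -1.11 to -0.09). In tomatidine microglia 10 of 11 mural markers (45.6 and 99.4 CPM summed) and 10 of 11 astrocyte markers (2138 and 2690 CPM) were higher. The CA1 markers, of the class highest in Efna3, summed to 386.7 and 384.5 CPM. The part of such RNA was not tested. Plxnb2 and Sema4d, which give most guidance counts in microglia, stood at -0.04 (-0.13 to 0.05) and -0.07 (-0.19 to 0.05). In border macrophages 0 of 9 members compared were past 1.5-fold, against 11.2% of all genes. Sema4d stood at 497.7 and 396.5 CPM.

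In endothelium 4 of 39 members compared were past 1.5-fold (10.3%, against 3.54% of all genes), all lower. Sema4b stood at 51.9 and 31.8 CPM (-0.70, -1.05 to -0.37), Sema5a at 94.6 and 60.02 CPM (-0.66, -0.90 to -0.41), Sema4a at 45.9 and 29.2 CPM (-0.65, -1.01 to -0.29) and Epha7 at 90.0 and 58.5 CPM (-0.62, -0.87 to -0.37). All 4 have their highest class elsewhere: Sema5a and Epha7 in granule neurons, Sema4b in astrocytes and Sema4a in border macrophages. All 7 granule neuron markers (542.2 and 309.4 CPM summed) and all 11 astrocyte markers (4622 and 3332 CPM) were lower in tomatidine endothelium, and their part was not tested. The genes highest in endothelium did not pass 1.5-fold, with Sema3g at 111.8 and 150.3 CPM, Ephb4 at 155.9 and 173.3, Plxnd1 at 148.7 and 158.1 and Sema3c at 363.7 and 382.4.

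In fibroblasts 5 of 35 members compared were past 1.5-fold (14.3%, against 4.2% of all genes). Sema3b, a secreted class 3 ligand at its highest class here, stood at 32.2 CPM (47 UMIs) in the control and 69.0 CPM (173 UMIs) in the tomatidine library, a log2 ratio of 1.10 (0.63 to 1.60), and 1.25 under the stricter filter. The choroid plexus markers, of the class with most Sema3b, summed to 2357 CPM in control and 671.9 CPM in tomatidine fibroblasts, and their part was not tested. In the astrocyte cluster led by Myoc, Sema3b was higher too, at 40.2 and 70.1 CPM (0.80, 0.42 to 1.19). Efna3 stood at 19.2 and 30.3 CPM (0.66, 0.02 to 1.34). Plxnb3 was lower at 39.8 and 20.8 CPM (-0.94, -1.51 to -0.37), Sema6a at 41.1 and 25.9 CPM (-0.67, -1.19 to -0.13) and Sema6d at 84.3 and 54.3 CPM (-0.64, -0.998 to -0.27), and all 3 are highest in oligodendrocytes. Oligodendrocyte markers in fibroblasts summed to 5170 CPM in the control and 3822 in the tomatidine library, with 1 of 11 higher, and their part was not tested.

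Across 8 alternative ways of filtering, clustering or scaling the cells, 10 of the 44 pairs stayed past 1.5-fold in every one, leaving the UMI minimum aside. These were Sema4g in CA1, Efnb2, Sema3f and Sema4a in thalamic or other subcortical neurons, Epha8 in astrocytes, Sema4d in precursors, Epha10 in oligodendrocytes, and Plxnb3, Sema3b and Sema6a in fibroblasts. The equal cluster mix is no check outside astrocytes and oligodendrocytes here, because the other classes named are single clusters and keep the main value. Under the stricter filter only Sema4a, Sema4d, Epha10 and Sema3b kept at least 100 UMIs, while Sema4g rested on 8 and 19.

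Downstream and co-receptor genes passed 1.5-fold about as often as genes in general. From a list of 44 such genes, which held neuropilin 1, the collapsin response mediators, small GTPases and their exchange factors, adhesion partners and proteases, 453 gene and class pairs could be compared, and 11 were past 1.5-fold higher and 5 lower (3.53%, near the 3% of all gene and class pairs), with class medians from -0.12 in fibroblasts to 0.09. The values below describe the 16 pairs and read nothing from their number. The largest difference was that of Cd72, an immune receptor of Sema4d, in border macrophages, with 88 UMIs in the control and 18 in the tomatidine library (-1.94, -2.76 to -1.20). Dpysl5, a collapsin response mediator, was higher in CA1 (1.09), Dpysl3 was higher (1.03) and Dpysl4 lower (-0.63) in endothelium, and Rnd1, a GTPase that binds plexins, was higher in oligodendrocytes (0.999) and microglia (0.63). Vav3, an exchange factor downstream of Eph receptors, was lower in oligodendrocytes (-0.65) and L1cam, an adhesion partner of neuropilins, higher in microglia (0.60). Tyrobp, the adaptor of Trem2 and itself microglial, was higher in CA3 or CA2 (0.70), cortical or subicular (0.997) and thalamic or other subcortical neurons (0.87) and in endothelium (0.65), and Trem2 in interneurons (1.02). In border macrophages Rhoa (-0.86) and Adam10, a protease that cleaves ephrins (-0.65), were lower and Itsn1 higher (0.67), in a class where 11.2% of all genes passed 1.5-fold.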

How the data were processed

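The authors deposited filtered UMI counts per gene and cell for 2 libraries made with a probe-based kit for fixed cells and sequenced on an AVITI instrument (mm10). The file header names Cell Ranger 7.1.0 and the submitters' processing notes Cell Ranger 8.0.0. The first of 2 sets of limits in the study's methods (minimum 500 UMIs, over 250 genes detected, log10 genes over log10 UMIs above 0.8, mitochondrial share below 20%) left 15423 and 14798 cells, and the 2% with the highest Scrublet doublet scores were removed (308 and 295), because the caller's own threshold marked 0 and 2 cells. Libraries were integrated with Seurat 5.3.0 (RPCA, 2000 variable genes, 30 components, resolution 0.8, R 4.3.3). Clusters were named from marker lists, by a rule written after the clusters were seen and revised once, so class names are rebuilt and may differ from the study's. UMIs were summed per library and class in Python 3.11.15, and log2 CPM ratios were given exact conditional binomial 95% intervals, which cover counting error only. The ratio and interval steps were tested on simulated counts. Stated values cover members past 1.5-fold, members 3-fold over the next class, the 5 with most UMIs per class, and partners by family. The members and lists were chosen with earlier results of these data known. TMM factors came from edgeR 4.0.16. Alternatives were no doublet removal, a stricter filter after the second set (at most 6000 genes, under 10% mitochondrial, the lower end of the range given there), TMM, means over cells, no integration, resolutions of 0.3 and 1.5, an equal cluster mix within classes and minima of 50 and 200 UMIs. Of the marker genes, 3 were not measured.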

Additional observations from a re-analysis of the deposited data

How the results depend on the processing

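With 1 library per group no library could be left out. No paired analysis was possible because each group has 1 library. Against 24 pairs past 1.5-fold higher and 20 lower, the stricter cell filter gave 18 and 6, and a minimum of 200 UMIs gave 12 and 14. The other alternatives gave 20 to 30 higher and 14 to 27 lower, and over all alternatives 43 to 47 genes had the same highest class in both libraries, against 44. Border macrophages were not named at a resolution of 0.3. Of 352 recomputed ratios of the pairs past 1.5-fold, 320 lay inside the counting interval, 26 outside it with the same sign and 6 on the other side of 0. Those 6 were, under the stricter filter, Ephb1 (-1.14) and Sema3c (-1.16) in CA1, Nrp2 in thalamic or other subcortical neurons (0.063) and Sema3f in interneurons (-0.34), and, with means over cells, Ephb1 in CA1 (-0.066) and Sema3f in interneurons (-0.26); the cause was not tested, but the first 4 rest on 100 UMIs or fewer. Of 206 recomputed ratios of ligand and receptor sums, 161 lay inside the counting interval, 23 outside with the same sign and 22 outside with the other sign, and 18 of those inside also had the other sign, so the direction of sums near 0 is not settled. Both totals include the equal cluster mix, which returns the main value where a class is a single cluster. The receptor sum of CA1 was -0.0020 at a resolution of 0.3, against 0.16. Under the stricter filter, with clusters remade, the CA1 class held 248 control and 264 tomatidine cells, against 616 and 543, while the thalamic or other subcortical class held 369 and 226, against 296 and 236. The cortical or subicular class held 405 and 618, against 493 and 479. A class that grew under the filter took in cells placed elsewhere before. Genes under 100 UMIs in a class could not be compared at this depth.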

Other observations

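Guidance genes also separated cells outside the 13 compared classes. The habenular class (123 control and 35 tomatidine cells) read 530.5 and 426.1 CPM of Nrp2, 307.7 and 201.7 CPM of Plxnc1, 101 and 137.9 CPM of Epha8 and 74.6 and 67.9 CPM of Sema3d. Choroid plexus epithelium read 118.4 and 125.1 CPM of Sema3f and 560.2 and 540.5 CPM of Plxnb2. Ependymal cells, with 34 and 14 cells, read 731.8 and 852.3 CPM of Plxnb2 and 292.7 and 389.7 CPM of Sema6d. Mural cells, 38 in each library, read 157.6 and 126.4 CPM of Epha2 and 394.1 and 483.6 CPM of Sema6d. Over all kept cells Sema3f gave 3092 UMIs in the control and 5402 in the tomatidine library, while Sema3b gave 1010 and 559, beside the unequal numbers of cells in the Pou4f2 and choroid plexus clusters.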
